A study of Homo sapiens with 12 samples.

Results

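The ERK pathway output genes are transcripts whose levels are commonly read as the transcriptional product of RAF-MEK-ERK signalling. The 10 genes described here are DUSP4, DUSP5, DUSP6, SPRY1, SPRY2, SPRY4, SPRED1, ETV4, ETV5 and PHLDA1, taken by symbol from a table of raw gene counts with 45478 genes. mRNA had been sequenced from cultured clear cell renal cell carcinoma (ccRCC) lines, with 3 libraries in each of 4 groups. 786-O and A498 are established VHL-deficient ccRCC lines and were the parental groups, grown without sunitinib, a multi-targeted receptor tyrosine kinase inhibitor. Sunitinib-resistant 786-O was selected at 4 μM sunitinib and sunitinib-resistant A498 at 2 μM, over 4 months or more than 20 passages. All 12 libraries are labelled as carrying no treatment, and their titles all hold the tag veh, which is not explained there. Whether sunitinib was in the medium at harvest is not stated. Each resistant line was raised as a single named culture, and no other agent or genotype distinguishes the groups in the labels. The question was whether transcripts of ERK output differed between the naïve and the sunitinib-resistant cells.

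ERK is the last kinase of a cascade that runs from receptor tyrosine kinases through RAS, RAF and MEK. Active ERK switches on the genes of its own inhibitors, so that their transcripts follow pathway activity with a delay. DUSP phosphatases remove phosphate from ERK, Sprouty and SPRED proteins restrain the cascade at or above RAF, and ETV4 and ETV5 are ETS transcription factors of the same response. VHL-deficient renal carcinoma cells commonly make TGFA, a ligand of EGFR, which can feed this cascade.

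CGGAAG is a longer form of the ETS core GGAA, the short DNA motif bound by factors such as ETV4 and ETV5. The bases upstream of DUSP6 and PHLDA1, 2 of the output genes that were lower in resistant 786-O, are shown because CGGAAG lies in them. RefSeq windows of the 250 bases before a start (GRCh38.p14) were found for 6 of the 10 genes, 9 windows in all. The capitals mark CGGAAG or, where it lies on the opposite strand, its reverse complement CTTCCG. The shorter GGAA was not searched for, and unmarked copies of it stand in the windows shown. The DUSP6 window, chr12:89352502-89352751 on the minus strand, lies outside DUSP6 and touches an exon of an antisense noncoding gene, and the PHLDA1 window, chr12:76031777-76032026 on the minus strand, touches no annotated exon.
DUSP6: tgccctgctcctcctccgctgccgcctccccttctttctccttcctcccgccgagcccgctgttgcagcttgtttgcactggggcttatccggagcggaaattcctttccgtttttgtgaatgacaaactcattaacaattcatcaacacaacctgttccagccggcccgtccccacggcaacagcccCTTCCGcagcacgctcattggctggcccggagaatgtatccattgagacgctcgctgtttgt
PHLDA1: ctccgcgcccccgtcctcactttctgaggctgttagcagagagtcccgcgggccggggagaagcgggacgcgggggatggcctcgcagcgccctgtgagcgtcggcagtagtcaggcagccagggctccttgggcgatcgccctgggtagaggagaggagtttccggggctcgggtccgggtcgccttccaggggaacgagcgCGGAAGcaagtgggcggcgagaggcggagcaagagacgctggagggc
A window of SPRY1, which was not called in resistant 786-O, held CGGAAG too. Thus 3 of the 9 windows had it, against 16.5% of 35114 such windows genome-wide, searched on both strands. The windows of SPRED1 and SPRY2, which were also lower in resistant 786-O, and of SPRY4 held no CGGAAG, which does not mean that they lack GGAA. The AP-1 motif TGANTCA was in 0 of the 9 windows (6.57% of all windows), and so were the cyclic AMP response element TGACGTCA (1.65%) and the CArG box (1.16%). None of these motifs overlapped another in the windows shown. A match describes the letters only.

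The libraries held 20042519 to 47972092 counts. Levels are given as CPM, counts scaled to the TMM-normalized library size. All 10 output genes were among the 19929 that passed edgeR's filter on low counts, but SPRY1 passed through A498 alone, where it was high, so that its calls against A498 support nothing. For most of the gene pairs examined, the counts did not keep the strands apart. For 185 noncoding genes with at least 95% of their exon bases inside the exons of a protein-coding gene on the other strand, the latter at a mean of 50 CPM or more, the median count per base was 165% of that of the protein-coding gene (155% to 179% by library). Of these genes, 139 were at 50% or more of that density and 154 at 10% or more. Why the others were lower was not tested. Where exons of opposite strands overlap, their transcripts therefore cannot be told apart. This touches DUSP6, with 1105 bases in exons of an antisense noncoding gene, PHLDA1, with 553 bases in PHLDA1-AS1, and ETV4, with 68 bases in DHX8, while DUSP4, DUSP5, SPRED1, ETV5 and the Sprouty genes share no exon base with an antisense gene in the table. An adjusted p is that of edgeR's quasi-likelihood test over all these genes with Benjamini-Hochberg adjustment, and a gene was called at an adjusted p under 0.05. P-values measure only the spread between these libraries, since separate cultures are not stated. The SE and 95% intervals of log2 differences come from the same fit of all 12 libraries, not from the 3 libraries of each group alone. The groups did not vary alike. For DUSP6 the SD was 45.1% of the mean in resistant 786-O and 6.08% to 11.1% in the other groups. No batch label is shared by 2 groups, so batch and group cannot be told apart. The libraries labelled resistant A498 went against their label. Their median correlation of log2 CPM with A498 was 0.849, as compared to 0.940 for 786-O and 0.977 for resistant 786-O, across 19190 autosomal genes that are not independent of each other. The 57 genes at 10 CPM or more in A498 and at most 3 counts in 786-O were at a median of 0.331% of their A498 level. Comparisons are therefore given for the libraries labelled resistant A498 against both parents. Within resistant 786-O, replicate 2 stood apart from replicates 1 and 3, and the output genes' differences from 786-O are given with and without it. Of 7 renal carcinoma markers 6 or 7 reached 1 CPM in each group, CA9 being at 3 counts or fewer outside A498. None of 6 T cell or 3 endothelial markers reached 1 CPM, and CD2, CD3D, CD3E and PTPRC were at 3 counts or fewer. CD8A was the only T cell marker to pass the filter. It passed through both resistant groups, where it was higher, so that its calls against the parents support nothing. The T cell markers summed to 0.184 to 0.266 CPM in 786-O and 0.710 to 1.00 in resistant 786-O. In A498 they summed to 0.0465 to 0.147 CPM and in resistant A498 to 0.548 to 0.622. The 4 fibroblast markers summed to 6.47 to 6.89 CPM in 786-O and 10.1 to 11.3 in resistant 786-O. In A498 they summed to 50.4 to 61.9 CPM and in resistant A498 to 19.1 to 21.5. Of the 4, 1 reached 1 CPM in A498 and 2 in each other group. Only COL1A1 and LUM passed the filter, LUM through the groups other than A498, so that its calls against A498 support nothing. LUM was at 3 counts or fewer in A498. In resistant A498 against A498 these 2 genes went opposite ways (log2 -3.90 and 9.19), so the sums do not describe a shared change. The part of any of these markers in the results below was not tested.

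In resistant 786-O as compared to 786-O, 1 output gene was higher, DUSP4, by 3.54-fold, and 6 were lower, PHLDA1, SPRED1, ETV4, DUSP6, ETV5 and SPRY2, by 1.20- to 2.09-fold. SPRY1, SPRY4 and DUSP5 did not pass the test. The background was broad, with 68.5% of all tested genes called, 35% higher and 33.5% lower. The median log2 difference over the 10 genes was -0.34, against 0.03 over all tested genes. The 3 libraries of each group did not overlap for 6 of the 10 output genes, against 68.9% of all tested genes.

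Among the phosphatases, DUSP4 (ENSG00000120875.9), which acts in the nucleus and lies on chromosome 8, was at 2.60, 3.21 and 3.00 CPM in the 786-O libraries and at 8.19, 14.3 and 8.86 CPM in resistant 786-O. All resistant 786-O libraries were above all parental 786-O libraries, and the log2 difference was 1.83 ± 0.19 (SE, n = 3 per group; edgeR adjusted p = 7.29e-07). DUSP6 (ENSG00000139318.8, chr12:89347235-89352501, minus strand, GRCh38), the cytoplasmic phosphatase most selective for ERK, was at 6.44, 6.34 and 5.75 CPM in 786-O and at 2.86, 5.72 and 2.71 CPM in resistant 786-O. Replicate 2 of resistant 786-O came to just under the lowest 786-O library, while the other resistant 786-O libraries were well below. The log2 difference of DUSP6 was -0.72 ± 0.21 (SE; edgeR adjusted p = 0.00686). The antisense noncoding gene that shares its exon bases averaged 1.46 CPM (of the library total without TMM) in 786-O and 1.58 in resistant 786-O. That gene averaged 1.55 in A498 and 1.58 in resistant A498, and its part in the DUSP6 counts was not tested. DUSP5 (ENSG00000138166.6, chr10:110497907-110511533, plus strand), a nuclear phosphatase of ERK, was at 18.04, 18.05 and 17.93 CPM in 786-O and at 13.3, 28.5 and 15.0 CPM in resistant 786-O. Its resistant 786-O libraries lay on both sides of 786-O, and the difference of 0.06 ± 0.19 (log2, SE) was not called (edgeR adjusted p = 0.781, 95% interval -0.35 to 0.48).

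Of the upstream inhibitors, SPRED1 (ENSG00000166068.13, chr15:38252836-38357249, plus strand), which brings neurofibromin to RAS, was at 26.2, 26.5 and 28.7 CPM in 786-O and at 15.3, 18.1 and 12.8 CPM in resistant 786-O. The groups did not overlap, with a log2 difference of -0.82 ± 0.09 (SE; edgeR adjusted p = 1.82e-06). SPRY2 (ENSG00000136158.12, chr13:80335976-80341126, minus strand), a Sprouty inhibitor of receptor tyrosine kinase signalling, was at 11.7, 12.8 and 12.7 CPM in 786-O and 9.64, 11.6 and 9.73 CPM in resistant 786-O. This was the smallest called change among the 10 genes, -0.27 ± 0.09 on the log2 scale (SE; edgeR adjusted p = 0.0194), and it lost its call when 786-O replicate 2 or 3, or resistant 786-O replicate 1 or 3, was left out (edgeR adjusted p from 0.0608 to 0.107). SPRY4 (ENSG00000187678.9, chr5:142310427-142326455, minus strand), a further Sprouty gene, was at 2.104, 2.22 and 2.13 CPM in 786-O and at 2.104, 6.09 and 2.30 CPM in resistant 786-O. Only replicate 2 exceeded the 786-O range clearly, and the log2 difference of 0.69 ± 0.31 (SE) was not called (edgeR adjusted p = 0.0636). It was called without resistant 786-O replicate 1 (0.98 on the log2 scale) or replicate 3 (0.93). SPRY1 (ENSG00000164056.11, chr4:123396795-123403760, plus strand) was near the limit of detection, at 0.133 to 0.310 CPM in 786-O and 0.131 to 0.343 CPM in resistant 786-O, from 6 to 15 counts a library, and a difference was not detectable at this depth (0.18 ± 0.44, log2, SE; edgeR adjusted p = 0.732).

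Both ETS factors were lower in resistant 786-O. ETV4 (ENSG00000175832.13, chr17:43527844-43579620, minus strand) was at 3.71, 4.01 and 3.66 CPM in 786-O and at 1.80, 3.46 and 1.51 CPM in resistant 786-O, with no overlap and a log2 difference of -0.76 ± 0.22 (SE; edgeR adjusted p = 0.00626). DHX8, an RNA helicase gene whose exons meet those of ETV4 on the other strand, averaged 54.8 CPM (of the library total without TMM) in 786-O, 58.0 in resistant 786-O, 109 in A498 and 71.6 in resistant A498, and its part in the ETV4 counts was not tested. ETV5 (ENSG00000244405.8, chr3:186046314-186110318, minus strand) was at 40.0, 39.4 and 39.4 CPM in 786-O. Its resistant 786-O libraries were at 24.3, 41.2 and 23.7 CPM, so that replicate 2 was above every 786-O library. The log2 difference of ETV5 was -0.42 ± 0.15 (SE; edgeR adjusted p = 0.0206), and its call was lost when resistant 786-O replicate 1 or 3 was left out (edgeR adjusted p = 0.13 and 0.132). PHLDA1 (ENSG00000139289.13, chr12:76025447-76031776, minus strand), a pleckstrin homology-like domain protein induced by growth factors, had the highest level per kilobase of exon among the output genes in every group and was the one with the largest decrease. It was at 163, 157 and 159 CPM in 786-O and at 65.7, 97.7 and 65.6 CPM in resistant 786-O. All resistant 786-O libraries were below all parental 786-O libraries, with a log2 difference of -1.07 ± 0.11 (SE; edgeR adjusted p = 6.83e-07). PHLDA1-AS1 averaged 40.1 CPM (of the library total without TMM) in 786-O and 30.8 in resistant 786-O. It averaged 69.1 in A498 and 28.6 in resistant A498, and its part in the PHLDA1 counts was not tested. Per kilobase of exon, the mean level in 786-O ran from 27.0 CPM per kb for PHLDA1 through 7.10 for DUSP5 and 6.86 for ETV5 to 0.404 for DUSP4 and 0.328 for SPRY4, with SPRY1 at 0.051. In these bulk libraries, fewer cells with a transcript and less of it in each cell cannot be told apart.

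**Figure D1:**
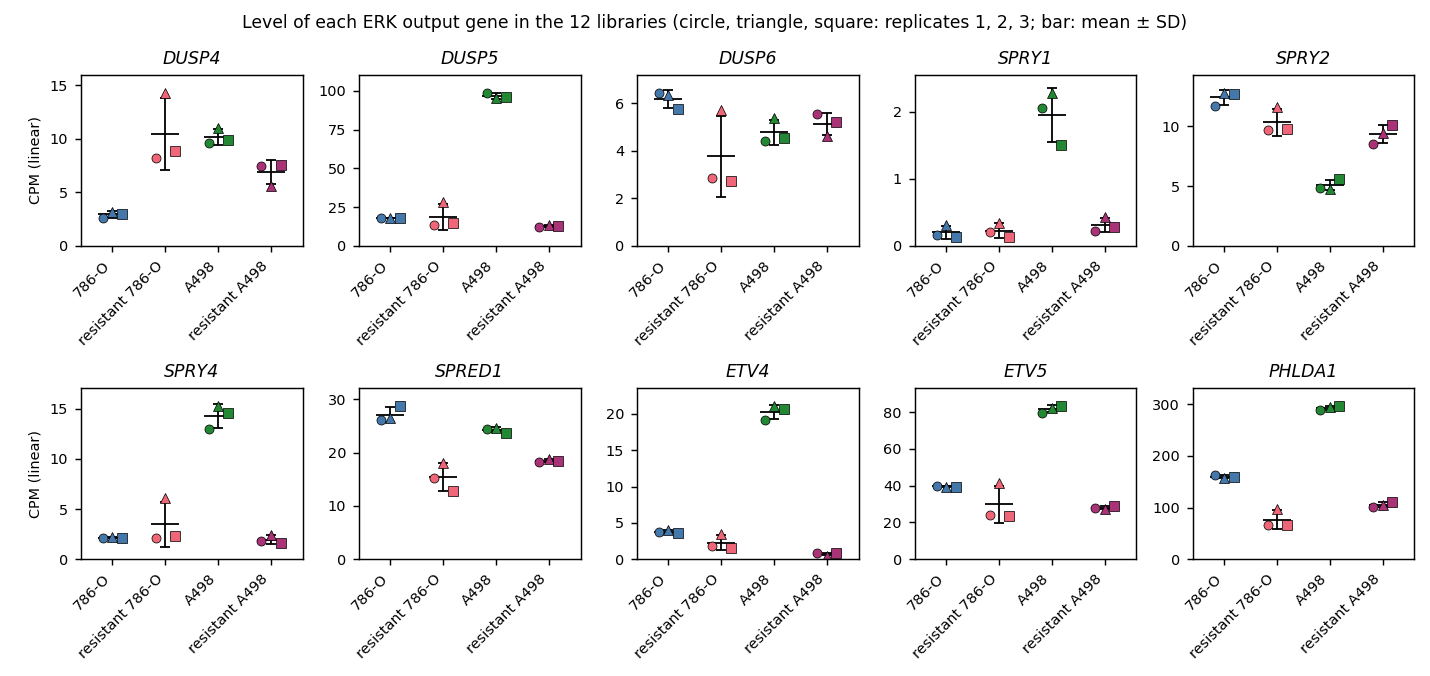
Level of each of the 10 ERK output genes in CPM (vertical axes, each from 0) in the 12 libraries by group; small symbols are libraries, with 1 shape for each replicate number, and the line and bar give the mean ± SD of 3 libraries. DUSP4 is higher in resistant 786-O than in 786-O, PHLDA1 and SPRED1 are lower, and resistant 786-O replicate 2 is the highest of the 3 resistant 786-O libraries in every panel.

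Replicate 2 of resistant 786-O held more of every output gene than replicates 1 and 3. Its level as compared to the mean CPM of both was 2.77-fold for SPRY4, 2.09-fold for ETV4, 2.06-fold for DUSP6, 2.05-fold for SPRY1 and 2.02-fold for DUSP5, then 1.72-fold for ETV5, 1.68-fold for DUSP4, 1.49-fold for PHLDA1, 1.29-fold for SPRED1 and 1.20-fold for SPRY2. As log2 CPM minus the mean log2 CPM of both, of the 9 output genes averaging 1 CPM or more over all libraries, 9 were above 0 and 7 above 0.5, with a median of 0.78. Of 15361 genes at that level, 50.8% were above 0 and 5.63% above 0.5. Its depth was 42643735 counts, against 46888482 and 44248719 in replicates 1 and 3. These values describe 1 library, and their cause was not tested.

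Other genes of the pathway were read in the same library. Of 19 other genes that ERK is known to induce, 16 were above 0 in replicate 2 and 6 above 0.5 (median 0.34). The highest were EMP1 at 1.89, FOSB at 1.76, HMGA1 at 1.34 and PLAUR at 1.31 on the log2 scale, named here after their values were seen. Of 11 relatives of the output genes, such as other DUSP and SPRED genes, 8 were above 0 (median 0.33), and of 6 EGFR ligands 5 were (median 0.38). Of the components of the cascade itself 4 of 24 were above 0, with a median of -0.13, and the lowest was the scaffold gene KSR1 at -0.81.

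**Figure D2:**
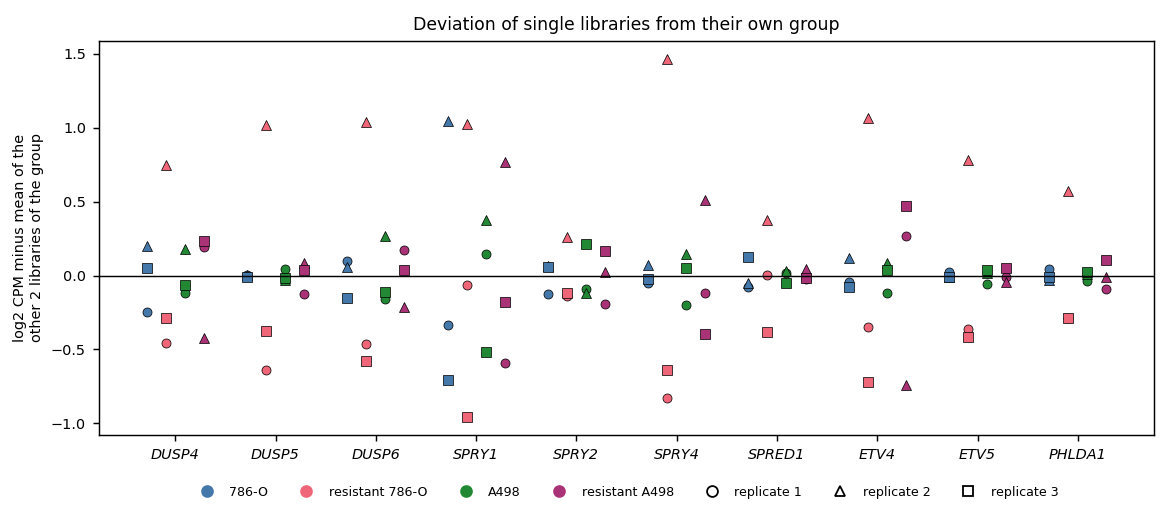
Log2 CPM of each library minus the mean of the other 2 libraries of its group (vertical axis) for the ERK output genes in all 12 libraries. Resistant 786-O replicate 2 is the library in which the output genes sit above 0 together, from 0.26 for SPRY2 to 1.47 for SPRY4.

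**Figure D3:**
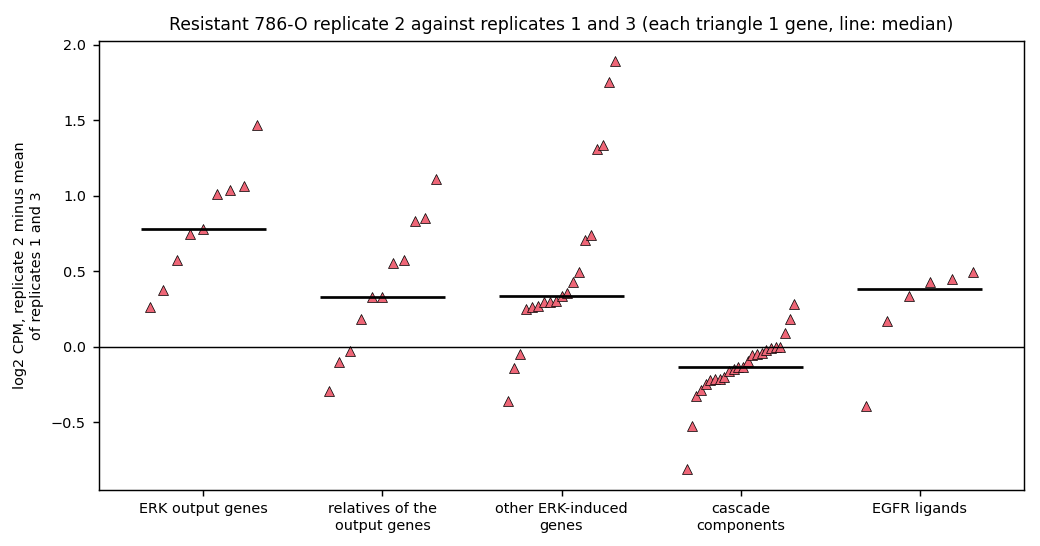
Log2 CPM of resistant 786-O replicate 2 minus the mean of replicates 1 and 3 (vertical axis) for genes averaging 1 CPM or more, in 5 lists; each triangle is 1 gene and the line the list's median. The medians are 0.78 for the 9 output genes, 0.33 for their relatives, 0.34 for other ERK-induced genes, -0.13 for cascade components and 0.38 for EGFR ligands.

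With replicate 2 left out, the decreases in resistant 786-O were larger. This was bound to follow, since that library was the highest of its group for every output gene, so it adds no support to them. The log2 difference from 786-O became -1.15 for DUSP6, -1.19 for ETV4, -0.72 for ETV5, -1.28 for PHLDA1, -0.95 for SPRED1 and -0.36 for SPRY2, and that of DUSP4 1.53. DUSP5 turned from 0.06 to -0.36 and was then called lower (edgeR adjusted p = 3.56e-06). SPRY4 came to 0.03 (edgeR adjusted p = 0.876) and SPRY1 to -0.22 (edgeR adjusted p = 0.696). In this fit 7 of the 10 genes were called lower and 1 higher, against 35.9% and 37.6% of all tested genes, and their median was -0.54. DUSP4 was thus called higher and DUSP6, ETV4, ETV5, PHLDA1, SPRED1 and SPRY2 lower in resistant 786-O with and without this library. The calls of ETV5 and SPRY2 were lost when replicate 1 or 3 was left out instead. They were also lost with only the groups compared in the fit (edgeR adjusted p = 0.113 and 0.0674). The SPRY2 call was lost as well with the trend of GC content and length removed (edgeR adjusted p = 0.0992) and with 10 counts required in every library (edgeR adjusted p = 0.0545). That of ETV5 was lost with all libraries thinned to the smallest (edgeR adjusted p = 0.0773). Without replicate 1, 4 output genes were called lower and 2 higher, and without replicate 3 also 4 and 2. Of all tested genes, 64.7% and 64% were called either way in these fits.

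The other genes of the pathway were read in the same comparison. Of 12 tested relatives of the output genes, 3 were higher, 6 lower and 3 not called in resistant 786-O, beside the background of 35% of all tested genes higher and 33.5% lower. Without replicate 2 of resistant 786-O, 3 were higher and 7 lower. DUSP9, a cytoplasmic ERK phosphatase, was at 6.26 to 7.26 CPM in 786-O and 1.18 to 2.43 CPM in resistant 786-O, a log2 difference of -1.96 ± 0.18 (SE; edgeR adjusted p = 2.23e-07). DUSP16, which acts mainly on JNK and p38, was lower by 1.88-fold and DUSP10, of the same preference, was higher by 1.58-fold. Of 21 other ERK-induced genes, 5 were higher and 8 lower, and 5 and 10 without that library. EMP1, an epithelial membrane protein, was at 0.155 to 0.414 CPM in 786-O and at 1.21, 4.92 and 1.44 CPM in resistant 786-O. Replicate 2 was well above the other libraries, and the log2 difference was 3.18 with it and 2.27 without it. UPP1, uridine phosphorylase, was higher by 2.80-fold and the cytokine IL11 lower by 2.40-fold. These groups did not share a direction.

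The cascade components were 6 higher, 13 lower and 5 not called of 24, against the same background of 35% and 33.5% (68.5% either way), and 6 higher and 13 lower without replicate 2. KSR1, a scaffold for RAF, MEK and ERK, was at 0.285 to 0.605 CPM in 786-O and at 6.80, 3.89 and 6.87 CPM in resistant 786-O, a 12.9-fold difference (edgeR adjusted p = 6.48e-09). RASA1, a GTPase-activating protein that switches RAS off and shares 771 exon bases with CCNH on the other strand, was lower by 2.80-fold and NRAS by 1.94-fold. All 6 EGFR ligands were called, 2 higher and 4 lower, with and without replicate 2. EREG, epiregulin, was at 251 to 255 CPM in 786-O and at 19.1 to 21.6 CPM in resistant 786-O, which was 12.6-fold lower (edgeR adjusted p = 5.22e-14). AREG, amphiregulin, was lower by 3.44-fold, and BTC, betacellulin, was higher by 7.21-fold. TGFA, named after its values were seen, had the highest mean CPM of the ligands in both groups.

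The parental lines already differed in output genes. In 786-O as compared to A498, SPRY2 was higher, by 2.44-fold, and 6 genes were lower, 7 with SPRY1, against 38.2% and 36.1% of all tested genes (74.2% either way). The largest differences beside SPRY1 were in SPRY4 (-2.72 ± 0.30, log2, SE), DUSP5 (-2.42 ± 0.19) and ETV4 (-2.42 ± 0.19). DUSP6 and SPRED1 were not called in the fit of all 12 libraries (edgeR adjusted p = 0.127 and 0.132). With only the parents in the fit both were called higher in 786-O. The log2 difference was then 0.34 for DUSP6 (edgeR adjusted p = 0.00512) and 0.12 for SPRED1 (edgeR adjusted p = 0.0406). Both were also called higher with no filter on low counts (edgeR adjusted p = 0.00369 and 0.0257). The libraries of the parents did not overlap for any of the 9 genes other than SPRY1, against 80.2% of all tested genes.

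In the libraries labelled resistant A498 as compared to A498, 7 output genes were lower, 8 with SPRY1, and 1 was higher, against 36.4% and 36.3% of all tested genes (72.7% either way). The median log2 difference was -1.47 over the 9 genes other than SPRY1 and -1.51 with it, against -0.00 over all. ETV4 was at 19.2, 21.1 and 20.6 CPM in A498 and at 0.783, 0.479 and 0.861 CPM in the libraries labelled resistant A498. This was a 28.0-fold decrease (log2 -4.81 ± 0.26, SE; edgeR adjusted p = 2.93e-10). DUSP5 was at 98.7, 95.3 and 95.9 CPM in A498 and 12.1, 13.3 and 13.0 CPM in the libraries labelled resistant A498, 7.56-fold lower. SPRY4 was at 13.0, 15.2 and 14.6 CPM in A498 and 1.83, 2.44 and 1.604 CPM in those libraries, 7.35-fold lower. SPRY1, which passed the filter through A498 alone, was 6.37-fold lower. ETV5 (2.91-fold), PHLDA1 (2.78-fold), DUSP4 (1.46-fold) and SPRED1 (1.31-fold) were lower as well. The DUSP4 call was lost without A498 replicate 2 (edgeR adjusted p = 0.0556) or resistant A498 replicate 2 (edgeR adjusted p = 0.102). SPRY2 was higher, at 8.54 to 10.1 CPM against 4.79 to 5.59 CPM in A498 (log2 0.88 ± 0.11, SE; edgeR adjusted p = 3.32e-06). DUSP6 overlapped between the groups, at 4.64 to 5.55 against 4.43 to 5.39 CPM, and was not called (edgeR adjusted p = 0.659, 95% interval of the log2 difference -0.37 to 0.61). The groups did not overlap for 8 of the 9 genes other than SPRY1, nor for SPRY1, against 78.5% of all tested genes.

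Against 786-O, the same libraries differed less. Here 1 output gene was higher and 5 were lower, against 31.6% and 32.1% of all tested genes (63.6% either way), with a median of -0.45 against 0.00 over all. The libraries did not overlap for 8 of the 10 genes, against 73.4% of all tested genes. DUSP4 was higher (log2 1.24 ± 0.21, SE; edgeR adjusted p = 8.73e-05). ETV4 was lower by 5.23-fold, PHLDA1 by 1.51-fold, SPRED1 by 1.47-fold, ETV5 by 1.41-fold and SPRY2 by 1.33-fold. DUSP5 (log2 -0.49; edgeR adjusted p = 0.0519), DUSP6 (-0.26), SPRY4 (-0.15) and SPRY1 (0.60) were not called. DUSP5 was called lower with no filter on low counts (edgeR adjusted p = 1.59e-08), with only the groups compared in the fit (edgeR adjusted p = 2.18e-07) and with the replicate number as a block (edgeR adjusted p = 0.0396). With only the groups compared in the fit, DUSP6 was called lower too (log2 -0.22, edgeR adjusted p = 0.0453). DUSP4, ETV4, ETV5, PHLDA1, SPRED1 and SPRY2 were called in the same direction in resistant 786-O against 786-O, a comparison that shares the 786-O libraries.

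**Figure D4:**
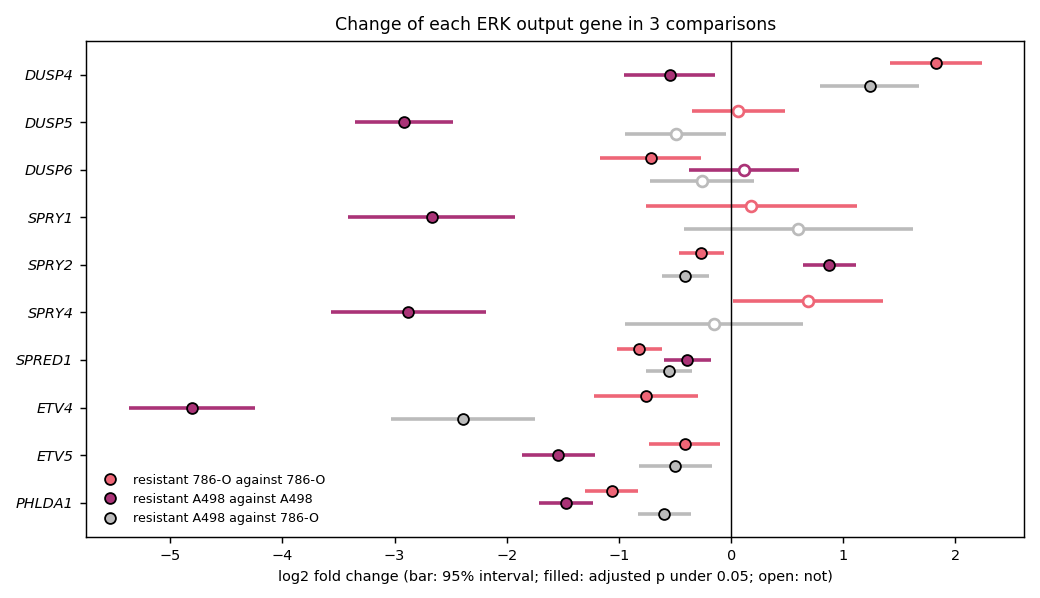
Log2 difference of each of the 10 ERK output genes (horizontal axis, points with 95% intervals) in resistant 786-O against 786-O and in the libraries labelled resistant A498 against A498 and against 786-O. The resistant 786-O differences run from -1.07 to 1.83, while SPRY1, SPRY4, DUSP5 and ETV4 lie below -2.5 only for the libraries labelled resistant A498 against A498.

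The direct test of both sets of libraries gave fewer calls, among all tested genes as well as among the output genes. Between the libraries labelled resistant A498 and resistant 786-O, PHLDA1 and SPRED1 were higher and ETV4, DUSP4 and DUSP5 lower in the former, against 23% of all tested genes in each direction and 46.1% in both together. The libraries did not overlap for 4 of the 10 genes, against 51.7% of all. ETV4 differed by 3.09-fold and PHLDA1 by 1.38-fold. Without resistant 786-O replicate 2 DUSP5 was no longer called (edgeR adjusted p = 0.0845), DUSP6 was higher in the libraries labelled resistant A498 by 0.89 on the log2 scale, and ETV5 turned from -0.08 to 0.23 and was called higher. The SPRED1 call, at an edgeR adjusted p of 0.0387, was lost without resistant 786-O replicate 1 or 3 or any 1 library labelled resistant A498. The DUSP5 call was also lost without any 1 of the latter (edgeR adjusted p from 0.0791 to 0.124), and the DUSP4 call without resistant A498 replicate 2 (edgeR adjusted p = 0.0848).

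The difference between resistant and parental libraries, as labelled, was not the same in both lines. It takes in the difference between the parents, and the libraries labelled resistant A498 were nearer to 786-O than to A498. Whether resistance changed these genes differently in the lines therefore cannot be told. In edgeR's test of the difference of changes, all 10 output genes were called, 7 (SPRY1 among them) with a lower and 3 with a higher change in the libraries labelled resistant A498, against 34.4% and 33.9% of all tested genes (68.3% either way). DUSP4 was called higher in resistant 786-O and lower in the libraries labelled resistant A498, and SPRY2 the reverse, while ETV4, ETV5, PHLDA1 and SPRED1 were called lower in both.

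The other genes of the pathway were also read in the libraries labelled resistant A498. Their counts stand beside a background of 36.3% of all tested genes higher and 36.4% lower against A498, and of 31.6% and 32.1% against 786-O. Of 24 cascade components, 14 were higher and 7 lower against A498, and 11 were higher and 12 lower against 786-O. Of 21 other ERK-induced genes, 8 were higher and 11 lower against A498 and 5 and 11 against 786-O. Of 12 tested relatives, 2 were higher in either comparison, 7 were lower against A498 and 6 against 786-O. Among the relatives, DUSP2 passed the filter through A498 alone, so that any call of it against A498 supports nothing. Among the other ERK-induced genes, FOS and EGR2 passed through A498 and resistant A498 alone, so that any call of them against 786-O supports nothing. EREG was 96.9-fold higher than in A498, where it was at 0.258 to 0.724 CPM, and 5.28-fold lower than in 786-O. KSR1 was 1.48-fold lower than in A498 and 24.9-fold higher than in 786-O, and EMP1 was 28.2-fold lower than in A498 and 7.82-fold higher than in 786-O. RASA1 (2.33- and 2.34-fold), AREG (4.88- and 4.42-fold) and DUSP9 (3.95- and 2.19-fold) were lower against both parents. BTC (1.59- and 9.76-fold), DUSP10 (4.18- and 2.07-fold) and UPP1 (1.40- and 2.30-fold) were higher against both.

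The order of the 4 groups differed between output genes. A498 was highest for DUSP5, SPRY4, ETV4, ETV5 and PHLDA1, by 1.84-fold or more over the next group. It was highest for SPRY1 too, which passed the filter through A498 alone, so that its place supports nothing. For DUSP4, resistant 786-O (10.4 ± 3.35 CPM, SD, n = 3) and A498 (10.2 ± 0.750) did not differ beyond their spread (edgeR adjusted p = 0.841) and were followed by resistant A498 (6.88 ± 1.11) and 786-O (2.94 ± 0.306). For DUSP6 the order was 786-O (6.18 ± 0.376), resistant A498 (5.13 ± 0.460), A498 (4.78 ± 0.531) and resistant 786-O (3.77 ± 1.70). No neighbours were called against each other in the fit of all 12 libraries. For SPRY2 it was 786-O, resistant 786-O, resistant A498 and A498, with resistant 786-O and resistant A498 not called against each other (edgeR adjusted p = 0.246). For SPRED1 it was 786-O and A498, which were not called against each other in that fit, then resistant A498 and resistant 786-O.

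The genes most like 3 of the output genes were sought among 15327 genes, by the root mean square difference of centred log2 CPM over the 12 libraries. For DUSP6 they were MECOM (0.192), TMEM209, TRMT10C, PLEKHA3 and MIPOL1 (0.206), and the nearest output gene was SPRED1 (0.262). For SPRY4 the nearest was another output gene, DUSP5 (0.256), followed by SYTL2, C1orf116, SP6 and KRT15 (0.318). For PHLDA1 they were ENSG00000238258 (0.145), which has no symbol in the names used, MDM2, TNFRSF1A, GLRX and SLC4A7 (0.176), with ETV5 the nearest output gene (0.247).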

How the data were processed

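RNA was measured in 12 libraries of 4 groups, 3 each, prepared by the authors with a stranded poly(A) kit. Per the methods and the submitters' processing notes, reads were trimmed (Trimmomatic 0.36.6), aligned to GRCh38 (HISAT2 2.1.0) and assigned to GENCODE exons (featureCounts 1.6.3). The authors deposited raw gene counts without normalization. The methods state a strand-specific count setting. Most noncoding genes examined inside exons of the other strand nevertheless had counts at 50% or more of the outer gene's density, so uncertainty remains where exons overlap.

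Groups were taken from the labels, in which the resistant lines carry their parent's name. In R 4.3.3, counts were filtered (filterByExpr), normalized by TMM and fitted with edgeR 4.0.16 in 1 quasi-likelihood model of all 12 libraries, read for 6 contrasts with Benjamini-Hochberg adjustment over 19929 genes. Log2 differences use a prior count of 0.125. The code was tested on simulated data. Total counts of 20042519 to 47972092 put 3 counts at 0.061 to 0.144 CPM. The named genes are all 10 output genes and, of each other list, up to 3 genes with the largest called differences in resistant 786-O at 1 CPM or more. The genes and lists were chosen with earlier results of these data known. Gene positions and exon lengths are from GENCODE 44. Alternatives included DESeq2 1.42.0, other scalings and filters, and each library left out. Python 3.11.15, pandas 2.3.3 and matplotlib 3.10.9 made tables and plots.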

Additional observations from a re-analysis of the deposited data

Results flagged for a closer look

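The change in the libraries labelled resistant A498 against A498 differed from the change in resistant 786-O against 786-O for all 10 output genes in edgeR's interaction test, which called 68.3% of all tested genes. 7 genes had a lower and 3 a higher change in the former, against 34.4% and 33.9% of all tested genes. On the log2 scale the difference of the changes was -4.05 for ETV4, -3.57 for SPRY4, -2.98 for DUSP5, -2.85 for SPRY1, -2.37 for DUSP4, -1.13 for ETV5 and -0.41 for PHLDA1. It was 1.14 for SPRY2, 0.84 for DUSP6 and 0.43 for SPRED1. Without resistant 786-O replicate 2, SPRY4 came to -2.90, DUSP5 to -2.56, DUSP6 to 1.28 and PHLDA1 to -0.18, and all 10 genes were called. SPRY1 passed the filter on low counts through A498 alone, so its call supports nothing. DUSP4 was called higher in one comparison and lower in the other, and SPRY2 the reverse. The DUSP6 call (edgeR adjusted p = 0.0265) was lost without resistant 786-O replicate 1 or 3, A498 replicate 1 or 3, or resistant A498 replicate 1. The PHLDA1 call (edgeR adjusted p = 0.0298) was lost without 786-O replicate 2 or 3, any 1 A498 library, or resistant A498 replicate 1 or 2. Each value rests on the libraries labelled resistant A498 being compared with A498, from which their transcriptome was farther than from 786-O.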

How the results depend on the processing

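Counts of called output genes stayed within 1.5 times of the value reported in 107 alternatives and not in 11. These came in resistant 786-O against 786-O (7 called), with 3 under the test that the study's methods name, run on raw counts without adjustment, and 2 when a log2 difference over 1 was required. With that requirement resistant A498 against 786-O had 2 in place of 6 and resistant A498 against resistant 786-O 1 in place of 5. The last comparison also had 3 with the trend of GC content and length removed, with or without the replicate block, 2 with only those groups fitted and 3 under the study's test. Leaving out each library in turn gave 6 to 8 calls in resistant 786-O against 786-O, 8 to 9 in resistant A498 against A498, 6 to 6 against 786-O, 8 to 8 between the parents, 2 to 6 between resistant A498 and resistant 786-O, and 8 to 10 for the difference of changes. Over the same omissions DUSP5 ran from -0.36 to 0.29 and SPRY1 from -0.22 to 0.62 in resistant 786-O against 786-O, and ETV5 from -0.21 to 0.23 in resistant A498 against resistant 786-O. A filter of 10 counts in every library removes SPRY1.

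Among single genes, directions turned in 16 cases. In resistant 786-O against 786-O these were SPRY1 at -0.07 without 786-O replicate 3 and -0.22 without resistant 786-O replicate 2, and DUSP5 at -0.36 without resistant 786-O replicate 2. Under the study's test, where depth is not scaled, DUSP6 came to -0.049 in resistant A498 against A498, SPRY1 to -0.13 against 786-O, and DUSP6 to -0.44, SPRY1 to -0.49, SPRED1 to -0.65 and PHLDA1 to -0.44 against resistant 786-O. With the trend of GC content and length removed, SPRED1 came to -0.11 between the parents, -0.064 in resistant A498 against resistant 786-O and -0.17 in the difference of changes, and with the replicate block added to -0.11, -0.058 and -0.16. ETV5 in resistant A498 against resistant 786-O came to 0.23 without resistant 786-O replicate 2. Scaling by library size alone moved the median of all genes in resistant 786-O against 786-O from 0.03 to 0.18, and SPRY2 (-0.12) and ETV5 (-0.27) then lost their calls there while SPRY4 (0.83) gained one.

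Same-numbered libraries did not deviate together (correlation over 15361 genes of -0.13 to -0.06 between 786-O and resistant 786-O and -0.01 to 0.03 between A498 and resistant A498). With the replicate block, 8 genes were called in resistant 786-O against 786-O, SPRY4 (0.61) being added. Depth limits SPRY1, at 6 to 15 counts a library outside A498. For the genes of the other lists, settings were applied after seeing the data and 17 values lost a call, those of DUSP16 against A498 and of IL11 against 786-O in the libraries labelled resistant A498.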
